A study of Mus musculus with 8 samples.

Results

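The 7 genes described here encode Fc receptors, a signalling chain and an Fc receptor-like protein: Fcgr1, Fcgr2b, Fcgr3, Fcgr4, Fcer1g, Fcgrt and Fcrls. They were taken by name from 36322 gene names on the array, and no threshold on their values was applied. The cells were bone marrow-derived macrophages (BMM) of female mice aged 6 to 8 weeks, grown for 6 days in L929-conditioned medium, which supplies the macrophage growth factor CSF1. The labels give their genotype as Cullin 3 wildtype (WT) or Cullin 3 knockout (KO), where Cullin 3 is the protein on which 1 class of ubiquitin ligases is assembled. Cells of either genotype were left without treatment or received lipopolysaccharide (LPS), a bacterial cell-wall component sensed by Toll-like receptor 4, for 6 hours. That made 4 groups of 2 arrays: WT untreated, WT with LPS, KO untreated and KO with LPS. The labels do not say which part of Cul3 was deleted, what drove the deletion, which strain was used or whether animals were pooled. Nor do they state what separates the 2 replicates of a group, so the p-values here reflect only how far these samples vary, and that variation may be technical.

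Receptors for the Fc part of IgG let a macrophage bind, engulf and respond to targets coated with antibody. Activating receptors signal through an immunoreceptor tyrosine-based activation motif (ITAM), carried for most of them by the shared gamma chain, which recruits Src family kinases and Syk. The inhibitory receptor Fcgr2b carries an inhibitory motif (ITIM) instead, which recruits the phosphatase SHIP1, and the neonatal receptor Fcgrt works inside the cell, where it returns IgG and albumin from endosomes to the surface. Interferons, acting through STAT and IRF factors, are textbook inducers of Fcgr1.

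The values below are log2 signals from which the 75th percentile of each array was subtracted, called levels, and a change is a difference of 2 group means of levels with its standard error. Every member had 1 probe, and every probe was well above background on all 8 arrays and saturated on none. The probes of Fcgr2b, Fcgr4, Fcgr3 and Fcer1g lie on chromosome 1 within 269 kb of each other (mm9, as the array's annotation gives it), between 172890988 and 173159853. Fcgr1 was probed at chr3:96086839-96086898, Fcrls at chr3:87056422-87056481 and Fcgrt at chr7:52350556-52350615, also on mm9. Exon or UTR positions of the probes were not assigned here. A level depends on its probe, so no gene's level is set against another's.

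The promoters of 3 members are shown, picked by their letters. Fcgr1 and Fcgr4 each hold a motif of the interferon pathway, while Fcgr2b, which also rose strongly, holds no such motif. Fcgr3, which rose as well, Fcer1g, Fcgrt and Fcrls hold none either and are not shown. Whether these motifs have a part in the changes was not tested. Each promoter shown is the stretch of 250 bases before the annotated start (RefSeq, GRCm38.p6), read 5′ to 3′ along the gene. Fcgr1 lies on the minus strand at chr3:96293970-96294219, Fcgr4 on the plus strand at chr1:171018676-171018925 and Fcgr2b on the minus strand at chr1:170976072-170976321. Capitals mark matches to the STAT motif GAS (TTCNNNGAA), the interferon-stimulated response element ISRE (GAAA and GAAA with any 2 bases between) and the core of the PU.1 motif (GAGGAA, here read on the opposite strand).
Fcgr1: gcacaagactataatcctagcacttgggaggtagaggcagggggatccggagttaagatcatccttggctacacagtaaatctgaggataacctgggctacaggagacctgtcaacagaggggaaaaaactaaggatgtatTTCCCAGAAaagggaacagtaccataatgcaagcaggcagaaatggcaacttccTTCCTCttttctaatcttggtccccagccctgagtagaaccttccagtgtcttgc
Fcgr4: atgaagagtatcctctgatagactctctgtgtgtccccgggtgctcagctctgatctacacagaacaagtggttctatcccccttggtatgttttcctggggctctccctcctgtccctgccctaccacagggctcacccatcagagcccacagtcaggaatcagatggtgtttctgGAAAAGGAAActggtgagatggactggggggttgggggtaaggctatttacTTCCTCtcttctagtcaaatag
Fcgr2b: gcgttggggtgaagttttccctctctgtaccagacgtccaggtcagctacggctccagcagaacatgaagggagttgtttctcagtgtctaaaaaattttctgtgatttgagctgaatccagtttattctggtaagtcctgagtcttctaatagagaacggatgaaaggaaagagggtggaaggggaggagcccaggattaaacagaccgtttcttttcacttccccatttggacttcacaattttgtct
The GAS match of Fcgr1 begins at base -109 from the start and reads TTCCCAGAA, and the ISRE match of Fcgr4 begins at base -73 and reads GAAAAGGAAA. Motifs were searched on both strands of 32851 RefSeq windows that run from 250 bases before a start to 50 after it, and all 7 members were found there. GAS letters occurred in 8.3% of all windows and, among the members, in that of Fcgr1 alone. ISRE letters occurred in 3.44% of all windows and, among the members, in that of Fcgr4 alone. The PU.1 core occurred in 28.3% of windows and in those of Fcgr1, Fcgr3, Fcgr4 and Fcrls, at bases -55, -6, -22 and -144. The NF-kappaB pattern of GGG and CC with any 5 bases between, whose matches can overlap each other, occurred in 50.8% of windows and in those of Fcgr2b, Fcgr3, Fcgr4 and Fcer1g. The core of the antioxidant response element, TGACNNNGC, occurred in 12.4% of windows and in that of Fcgrt, at base -223. These are matches of letters, and no binding was measured.

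All 8 arrays shared a slide and a scan, 60.9% to 73.7% of spots per array were well above background, and replicates correlated across genes at 0.992 to 0.995. Of 59305 spots per array, 974 were flagged as outliers on KO replicate 2 with LPS and 180 to 325 on each other array. WT arrays filled 1 row of the slide and KO arrays the other, while untreated and LPS arrays filled different columns, so slide row cannot be told apart from genotype, nor column from LPS. Spike-in controls had a mean log2 signal of 11.45 to 11.75 on untreated arrays and 10.73 to 11.25 on LPS arrays. Their part in the LPS changes was not tested. The probe for Cul3 read 2.04 and 2.08 in untreated WT cells and 1.65 and 1.55 in untreated KO cells, and with LPS 2.69 and 2.72 in WT and 2.22 and 2.15 in KO. The KO arrays were lower in both states, by 0.46 without LPS (limma adjusted p = 0.0907) and by 0.52 with it (adjusted p = 0.0305). The call with LPS was lost without any 1 of the 8 arrays (-0.55 to -0.49). On the deposited values it was lost without scaling (-0.17, limma adjusted p = 0.574) and at their 75th percentile (-0.23, adjusted p = 0.299). It was also lost with median centring (adjusted p = 0.0696), no filter on dim probes (0.0632) and only the arrays compared (0.136). A block for replicate (0.0724) or slide column (0.166) lost it too, though KO stayed the lower side throughout. Which stretch of Cul3 the deletion removed is not given in the labels, so the probe is a weak check of them. All 8 macrophage markers were well above background on both arrays of every group, except in untreated KO cells, where 7 were. Of 9 mast cell and basophil markers, the receptor chains Fcer1a and Ms4a2 and the protease Cma1 were not well above background in any group. Of the 5 tested, 5 rose with LPS in WT cells and 4 in KO cells, led by Hdc, the enzyme that makes histamine, at 10.87 and 9.64. Rises were called for 36.5% of all genes in WT cells and 28.6% in KO cells. The summed signal of the 9 was 284.95 to 502.42 on untreated arrays and 61955 to 75369 on LPS arrays. In WT cells Mcpt4 rose by 2.18, Gata2 by 1.93, Mcpt8 by 1.64 and Tpsb2 by 0.58, so the sum with LPS was mainly Hdc. The call of Tpsb2 there was lost with quantile normalization (limma adjusted p = 0.0971) and median centring (adjusted p = 0.465). The part of the mast cell and basophil markers in the LPS changes of the members was not tested.

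With LPS, the 4 Fc gamma receptor genes rose in both genotypes, the gamma chain rose under the main scaling, and Fcgrt and Fcrls fell. All 7 members passed the test in each genotype (limma, adjusted p under 0.05), where 58.3% of all genes did in WT cells and 49% in KO cells. In WT cells 5 of 7 were higher, against 36.5% of all genes, and 2 of 7 lower, against 21.8%. In KO cells the same counts stood against 28.6% and 20.4%. The changes of Fcgr4 and Fcgr2b in WT cells ranked 324 and 469 by size among 27950 genes, while that of Fcer1g ranked 10595. Each array sampled the RNA of a whole culture, so fewer cells of a type and less RNA per cell cannot be told apart.

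**Figure D1:**
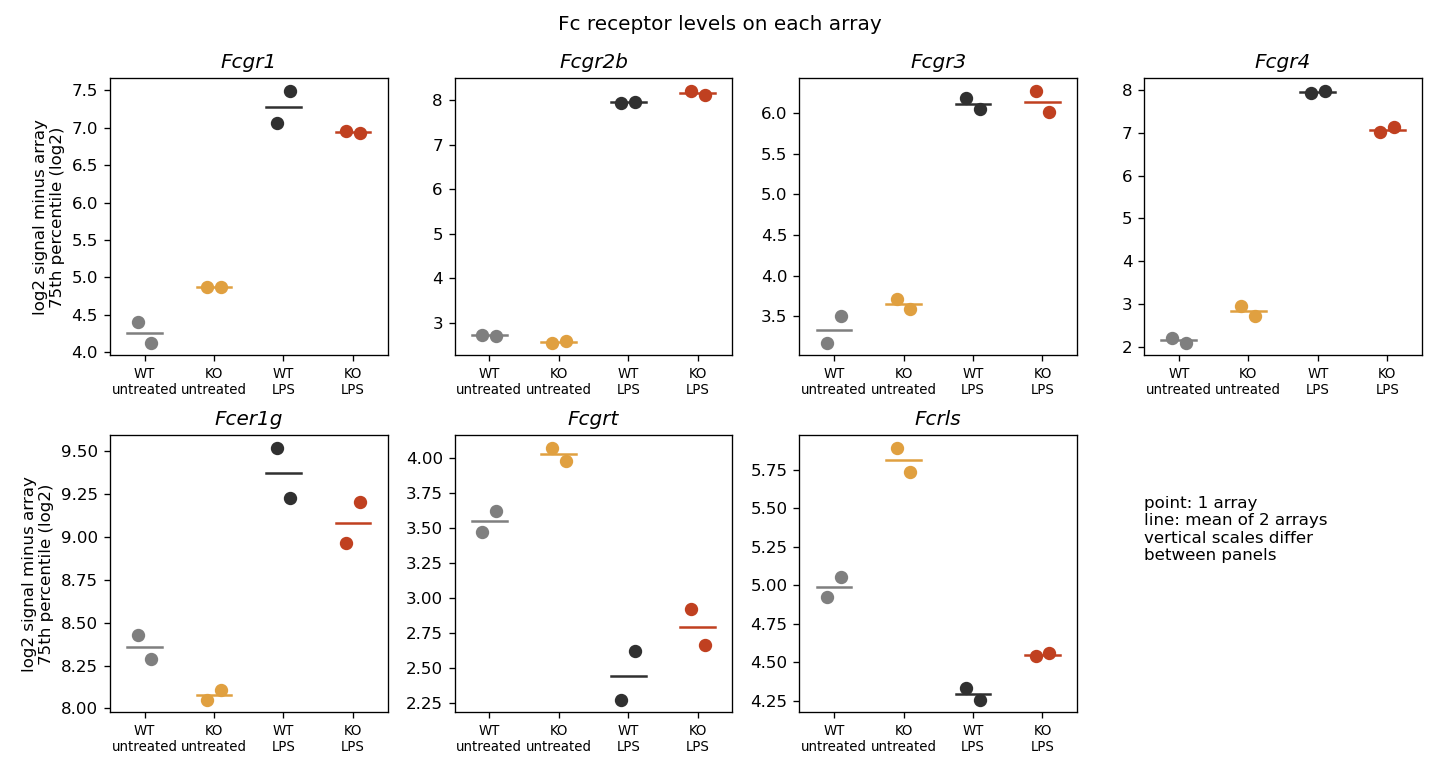
Level of each of the 7 genes on each of the 8 arrays (log2 signal minus the array's 75th percentile, vertical axis; scales differ between panels). Points are arrays, lines the means of the 2 arrays of a group. Fcgr1, Fcgr2b, Fcgr3 and Fcgr4 stand higher on all 4 LPS arrays than on all 4 untreated ones, and in the panel of Fcgr4 the order of WT and KO turns round between the states.

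Fcgr4 encodes an activating receptor of intermediate affinity that needs the gamma chain. Its level was 2.20 and 2.09 in untreated WT cells and 7.93 and 7.99 in WT cells with LPS. In KO cells it was 2.96 and 2.71 without LPS and 7.03 and 7.14 with it. The LPS arrays stood far above the untreated ones in both genotypes, and KO arrays were the higher ones before LPS and the lower ones after it. The rise was 5.82 ± 0.14 in WT cells (56.3-fold, limma adjusted p = 1.35e-06) and 4.25 ± 0.14 in KO cells (adjusted p = 5.29e-06).

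Fcgr2b encodes the inhibitory receptor. Its level was 2.73 and 2.71 in untreated WT cells and 7.95 on both WT arrays with LPS. In KO cells it was 2.55 and 2.60 without LPS and 8.21 and 8.11 with it. Both genotypes were tightly grouped in each state. Of the 10 spots of this probe, the 9 or 10 used on each array differed by an SD of 0.017 to 0.056 on the log2 scale. The rise was 5.23 ± 0.11 in WT cells (37.5-fold, limma adjusted p = 1.27e-06) and 5.58 ± 0.11 in KO cells (47.9-fold, adjusted p = 2.57e-06).

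Fcgr1 encodes the high-affinity activating receptor, which binds single IgG molecules. Its level was 4.40 and 4.12 in untreated WT cells and 7.07 and 7.49 in WT cells with LPS. The KO level was 4.87 on both arrays without LPS and 6.95 and 6.93 with it. Again KO arrays stood above the WT arrays before LPS and below them after it. The rise was 3.02 ± 0.18 in WT cells (8.11-fold, limma adjusted p = 2.74e-05) and 2.07 ± 0.18 in KO cells (4.21-fold, adjusted p = 0.000183).

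Fcgr3 encodes a low-affinity activating receptor. Its level was 3.17 and 3.50 in untreated WT cells and 6.19 and 6.05 in WT cells with LPS. The KO arrays read 3.71 and 3.58 without LPS and 6.27 and 6.01 with it. All LPS arrays were above all untreated ones, and the genotypes overlapped after LPS. The rise was 2.79 ± 0.17 in WT cells (6.89-fold, limma adjusted p = 3.02e-05) and 2.49 ± 0.17 in KO cells (5.64-fold, adjusted p = 6.6e-05). The probe of 60 bases (chr1:172984129-172984188, mm9) is shown because Fcgr3 and Fcgr2b are known to be closely alike in the sequence of their extracellular domains. Whether the probe lies in such a stretch was not assigned.
Fcgr3 probe: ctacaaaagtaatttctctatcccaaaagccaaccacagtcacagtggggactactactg
Fcgr2b was 37.5-fold higher with LPS in the same WT cells. Whether its transcripts bound the Fcgr3 probe was not tested.

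Fcer1g encodes the gamma chain, the ITAM-bearing partner that Fcgr1, Fcgr3 and Fcgr4 need at the cell surface. Its level was 8.43 and 8.29 in untreated WT cells and 9.52 and 9.23 in WT cells with LPS. The KO level was 8.05 and 8.11 without LPS and 8.97 and 9.20 with it. All 4 LPS arrays were above all 4 untreated ones, but by a small step beside those of the receptors. The rise was 1.02 ± 0.16 in WT cells (2.02-fold, limma adjusted p = 0.00191) and 1.01 ± 0.16 in KO cells (adjusted p = 0.00247). This call depended on the scaling. With quantile normalization the change was 0.14 in WT cells (adjusted p = 0.469) and 0.40 in KO cells (adjusted p = 0.0791). On the deposited values without scaling it was 0.14 (adjusted p = 0.532) and 0.43 (adjusted p = 0.0828).

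Fcgrt encodes the heavy chain of the neonatal Fc receptor. Its level was 3.47 and 3.62 in untreated WT cells and 2.27 and 2.62 in WT cells with LPS. In KO cells it was 4.07 and 3.98 without LPS and 2.92 and 2.66 with it. LPS arrays were below untreated arrays in both genotypes, the opposite order to that of the Fc gamma receptors. The change was -1.10 ± 0.17 in WT cells (2.15-fold lower, limma adjusted p = 0.00192) and -1.23 ± 0.17 in KO cells (2.35-fold lower, adjusted p = 0.00147). B2m, the light chain that Fcgrt needs, had changes of 0.81 in WT and 0.68 in KO cells, both called, but of -0.09 and 0.08 with quantile normalization (adjusted p = 0.498 and 0.587), and the call in KO cells was lost without KO untreated replicate 1 (adjusted p = 0.0622).

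Fcrls encodes an Fc receptor-like protein with a scavenger receptor domain, known best as a marker of microglia. Its level was 4.93 and 5.06 in untreated WT cells and 4.33 and 4.26 in WT cells with LPS. KO arrays read 5.89 and 5.73 without LPS and 4.54 and 4.56 with it. LPS arrays were below untreated arrays, and KO arrays above WT arrays, in each pair of groups. The change was -0.70 ± 0.13 in WT cells (1.62-fold lower, limma adjusted p = 0.00366) and -1.26 ± 0.13 in KO cells (2.40-fold lower, adjusted p = 0.00033).

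**Figure D2:**
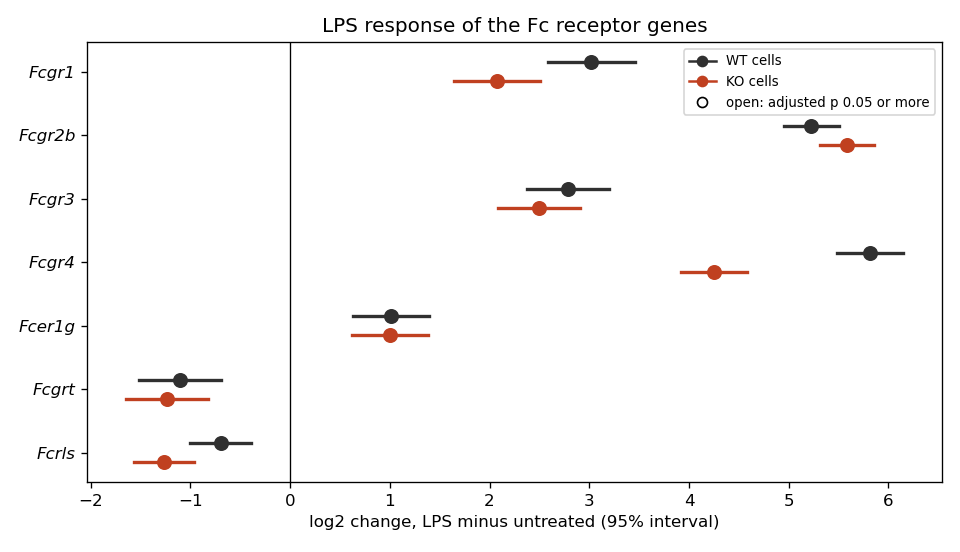
Change with LPS of the 7 genes (log2 scale, LPS minus untreated) in WT and KO cells, with bars of 95% intervals. Fcgr4 and Fcgr2b lie at 4.25 to 5.82, Fcgr1 and Fcgr3 at 2.07 to 3.02, Fcer1g near 1, and Fcgrt and Fcrls below 0; the genotypes lie furthest apart at Fcgr4.

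The way the arrays were scaled moved the median LPS change of all genes, and single genes by unequal amounts. The median change of all genes in WT cells was 0.32 under the main scaling, -0.06 with quantile normalization, -0.07 with median centring, 0.52 with normexp background correction and -0.59 on the deposited values without scaling. The called genes divided accordingly into 10195 higher and 6100 lower under the main scaling, 6991 and 8557 with quantile normalization, 6317 and 8459 with median centring, 16490 and 5545 with normexp, and 2427 and 8406 on the deposited values. In KO cells the division was 8000 higher and 5698 lower under the main scaling, 5903 and 7587 with quantile normalization, 5275 and 7500 with median centring, 14175 and 5426 with normexp, and 2243 and 7779 on the deposited values. Relative to the median change of all genes, the rise of Fcgr4 in WT cells lay between 5.30 and 5.64 over the 6 scalings, that of Fcgr2b between 4.64 and 4.99, that of Fcgr1 between 2.32 and 2.70 and that of Fcgr3 between 2.16 and 2.48. Relative to the same median, Fcer1g lay between 0.21 and 0.74, Fcgrt between -1.67 and -1.32, and Fcrls between -1.28 and -0.96. In KO cells the relative ranges were 3.81 to 4.06 for Fcgr4, 5.15 to 5.41 for Fcgr2b, 1.65 to 1.92 for Fcgr1 and 2.11 to 2.36 for Fcgr3. There they were 0.46 to 0.90 for Fcer1g, -1.69 to -1.39 for Fcgrt and -1.69 to -1.35 for Fcrls. Apart from Fcer1g, each member kept its direction and its call in both LPS comparisons under all 21 alternatives, the 8 that leave out an array among them.

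**Figure D3:**
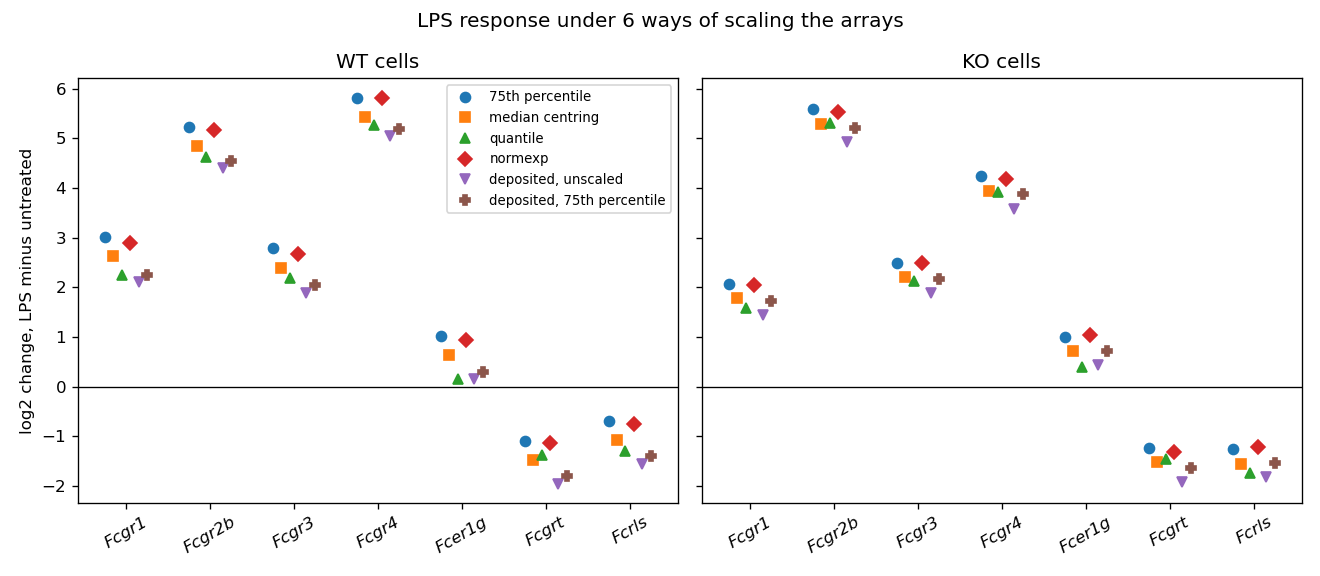
Change with LPS of the 7 genes (log2 scale, LPS minus untreated) in WT cells, left, and KO cells, right, under 6 ways of scaling the arrays, each with its own symbol. Every symbol of the 4 Fc gamma receptors lies above every symbol of Fcer1g, whose change in WT cells runs from 0.14 to 1.02.

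Without LPS, Fcrls was the member that differed between the genotypes beyond the threshold. It was higher in KO cells by 0.82 ± 0.13 (1.77-fold, limma adjusted p = 0.0283), so that 1 of 7 members was called, against 3.44% of all genes. Of all genes, 2.27% were called higher in KO cells and 1.17% lower. Side by side in the columns of the slide, KO minus WT was 0.97 and 0.68. The call was lost with median centring (adjusted p = 0.0532), without the filter on dim probes (0.0659), with only the 4 arrays compared (0.0615) and with slide column as a block (0.158). It was also lost without any 1 of the untreated arrays or of the KO arrays with LPS (adjusted p 0.0636 to 0.176). Over these omissions the change itself ran from 0.74 to 0.90.

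Fcgr4 was higher in untreated KO cells by 0.69 ± 0.14 (1.62-fold, 95% interval 0.36 to 1.02), just outside the threshold at an adjusted p of 0.0546 by limma. It was called with normexp (adjusted p = 0.00914), on the deposited values without scaling (adjusted p = 0.0312), among probes well above background on all 8 arrays (adjusted p = 0.0302) and with trended and robust moderation (adjusted p = 0.0139). Under the other 18 of the 22 alternatives Fcgr4 was not called. Without single arrays its change ran from 0.57 to 0.82. The other members were not called by limma. Fcgr1 differed by 0.61 (95% interval 0.18 to 1.04, adjusted p = 0.127), Fcgrt by 0.48 (0.06 to 0.89, adjusted p = 0.182) and Fcgr3 by 0.31 (-0.09 to 0.72, adjusted p = 0.328). For Fcgr2b the difference was -0.15 (-0.42 to 0.13, adjusted p = 0.487) and for Fcer1g -0.28 (-0.66 to 0.10, adjusted p = 0.348). KO arrays did not overlap WT arrays for any of the 7 members, being higher for 5 and lower for Fcgr2b and Fcer1g, but with 2 arrays a group the same held for 60.5% of all genes.

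With LPS, Fcgr4 was the member called between the genotypes, and it was lower in KO cells. The difference was -0.88 ± 0.14 (1.83-fold lower, limma adjusted p = 0.0110), 1 of 7 members against 16.4% of all genes called, 7.88% higher and 8.57% lower. The 2 columns of the slide gave -0.91 and -0.84. The call was lost on the deposited values without scaling (-0.57, adjusted p = 0.0679), with only the 4 arrays compared (adjusted p = 0.0676), with slide column as a block (adjusted p = 0.0670), without KO replicate 1 with LPS (-0.82, adjusted p = 0.0637) and without KO replicate 2 with LPS (-0.93, adjusted p = 0.0531). Relative to the median of all genes the difference lay between -0.81 and -0.67 over the 6 scalings.

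The other 6 members were not called between the genotypes with LPS. Fcgr1 differed by -0.34 (95% interval -0.77 to 0.10, adjusted p = 0.250 by limma), Fcer1g by -0.29 (-0.67 to 0.09, adjusted p = 0.259) and Fcgr3 by 0.02 (-0.38 to 0.43, adjusted p = 0.940). The inhibitory Fcgr2b differed by 0.21 (-0.06 to 0.48, adjusted p = 0.255), Fcgrt by 0.35 (-0.07 to 0.76, adjusted p = 0.218) and Fcrls by 0.25 (-0.05 to 0.56, adjusted p = 0.218). Quantile normalization called Fcgr2b at 0.45 (adjusted p = 0.0410). The deposited values without scaling called Fcgrt at 0.69 (adjusted p = 0.0421) and Fcgr2b at 0.56 (adjusted p = 0.0499). Scaled to their 75th percentile, they called both of these, Fcgr4 and Fcrls.

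**Figure D4:**
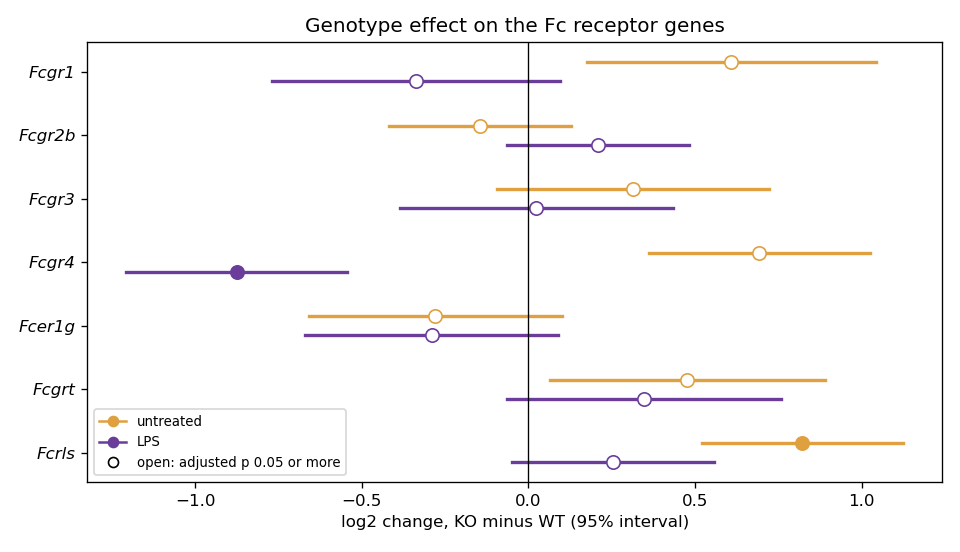
KO minus WT for the 7 genes (log2 change, horizontal axis, with 95% intervals) without LPS and with LPS. Filled points have an adjusted p under 0.05: Fcrls without LPS at 0.82 and Fcgr4 with LPS at -0.88, whose untreated point lies on the other side of 0 at 0.69.

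Neutrophil markers moved with the genotype. Of 10 such markers, 8 were higher in untreated KO cells (median change 1.66, against 0.05 for all genes), and with LPS 8 were higher and 1 lower. Of all genes, 2.27% were higher without LPS, and 7.88% were higher and 8.57% lower with it. With normexp, Cxcr2 was not called without LPS (0.32, limma adjusted p = 0.127). With LPS, normexp called neither Cxcr2 (0.15, adjusted p = 0.363) nor Retnlg (-0.02, adjusted p = 0.946). The lower call, that of Elane, was lost in 4 of the 5 other scalings. The summed signal of the 10 was 59931 to 75604 in untreated WT cells and 105552 to 135652 in untreated KO cells. With LPS it was 80485 to 85658 in WT and 151683 to 178191 in KO cells. Of the 8 macrophage markers, 1 was lower in KO cells with LPS. Of 6 stromal and endothelial markers, 3 were higher in untreated KO cells (Cxcl12 by 1.90, Pdgfrb by 1.67 and Cdh5 by 1.19), each a call lost without some single untreated arrays, and 1 was higher with LPS. The summed signal of the 6 was 1658 to 2090 in untreated WT and 1974 to 2092 in untreated KO cells, and 2969 to 3949 in WT and 8088 to 8233 in KO cells with LPS. Of the 5 mast cell and basophil markers tested, 2 were higher in KO cells with LPS, Gata2 by 2.11 and Mcpt8 by 1.58. With normexp the change of Mcpt8 was 0.30 and not called (limma adjusted p = 0.173). The part of these markers in the genotype differences of Fcgr4 and Fcrls was not tested.

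The response of Fcgr4 to LPS differed between the genotypes, and no other member's response was called different. The rise in KO cells was smaller by 1.57 ± 0.19 on the log2 scale, a change of -1.57 (95% interval -2.04 to -1.10, limma adjusted p = 0.0212), 1 of 7 members against 4.49% of all genes, 1.57% higher and 2.92% lower. The call was lost without the filter on dim probes (adjusted p = 0.0535) and with slide column as a block (adjusted p = 0.131). It was also lost without any 1 of the 6 arrays other than the WT arrays with LPS (adjusted p 0.0711 to 0.0877), while the difference ran from -1.69 to -1.45 over all 8 omissions. Fcgr1 followed at -0.95 (95% interval -1.56 to -0.33, adjusted p = 0.0931), and was called with trended and robust moderation (adjusted p = 0.0346) and without WT replicate 1 with LPS (-1.16, adjusted p = 0.0413). Fcrls differed by -0.57 ± 0.18 (adjusted p = 0.132) and Fcgr2b, in the other direction, by 0.36 (-0.03 to 0.74, adjusted p = 0.261). The intervals of Fcgr3 (-0.87 to 0.29), Fcgrt (-0.71 to 0.45) and Fcer1g (-0.55 to 0.53) included 0.

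Some of the divisions between higher and lower calls for the genotype and response comparisons moved with the scaling too. Without LPS, 634 genes were higher and 328 lower in KO cells, but 1248 and 1063 with normexp and 1000 and 255 on the deposited values without scaling. With LPS, 2201 were higher and 2394 lower, but 2293 and 3790 with normexp and 3472 and 757 on the deposited values. For the difference in response, 438 were higher and 815 lower, but 563 and 688 with quantile normalization, 391 and 463 with median centring, 271 and 276 on the deposited values, and 1180 and 452 once these were scaled to their 75th percentile. The deposited values with that scaling gave 704 and 676 without LPS and 3859 and 1157 with it.

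Among 15 transcription factors known to act at Fc receptor promoters, 12 rose and 2 fell with LPS in WT cells, and 9 rose and 1 fell in KO cells. The shares of all genes were 36.5% and 21.8% in WT cells and 28.6% and 20.4% in KO cells. The median change of the factors was 1.99 in WT and 1.40 in KO cells, against 0.32 and 0.21 for all genes. Irf1, an interferon-induced activator, rose by 3.91 ± 0.17 in WT and 2.38 ± 0.17 in KO cells, and Stat3 by 3.86 and 3.16. Tfec, a macrophage member of the MITF family, rose by 4.93 and 4.27, while Cebpa, a factor of myeloid differentiation, fell by 5.11 and 3.74. Spi1, which encodes PU.1, rose by 1.11 in WT and 1.40 in KO cells, but its WT change was 0.27 on the deposited values without scaling (limma adjusted p = 0.389). The rise of Elf1 in WT cells, 0.92 under the main scaling, was not called in 4 of the 5 other scalings.

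Between the genotypes with LPS, 5 of the 15 factors were lower in KO cells and 2 higher, with a median of -0.37 against -0.08 for all genes. Of all genes, 8.57% were lower and 7.88% higher. With median centring and on the deposited values without scaling, 3 were lower and 2 higher. The calls of Stat3 and Elf1 were lost in 4 and 2 of the 5 other scalings. Irf8 had a change of -1.37 ± 0.15 (limma adjusted p = 0.00372), Irf2 of -1.04 ± 0.13 (adjusted p = 0.00565) and Irf1 of -1.11 ± 0.17 (adjusted p = 0.0104). Irf8 is a lineage factor of macrophages, and Irf2 is a relative of Irf1 that can oppose it. Cebpa was higher by 1.45 ± 0.14 (adjusted p = 0.00306). The calls of Irf8, Irf2 and Cebpa held without any 1 array, and that of Irf1 was lost without KO replicate 2 with LPS (adjusted p = 0.0628). In response to LPS, Irf1, Irf8 and Irf2 differed by -1.53, -1.48 and -1.34, and Ets1 and Cebpa by 1.54 and 1.36. These 5 calls were lost without any 1 of the untreated arrays or of the KO arrays with LPS, and those of Irf8 and Ets1 also without WT replicate 2 with LPS. That of Irf1 was lost with median centring as well (adjusted p = 0.0538).

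**Figure D5:**
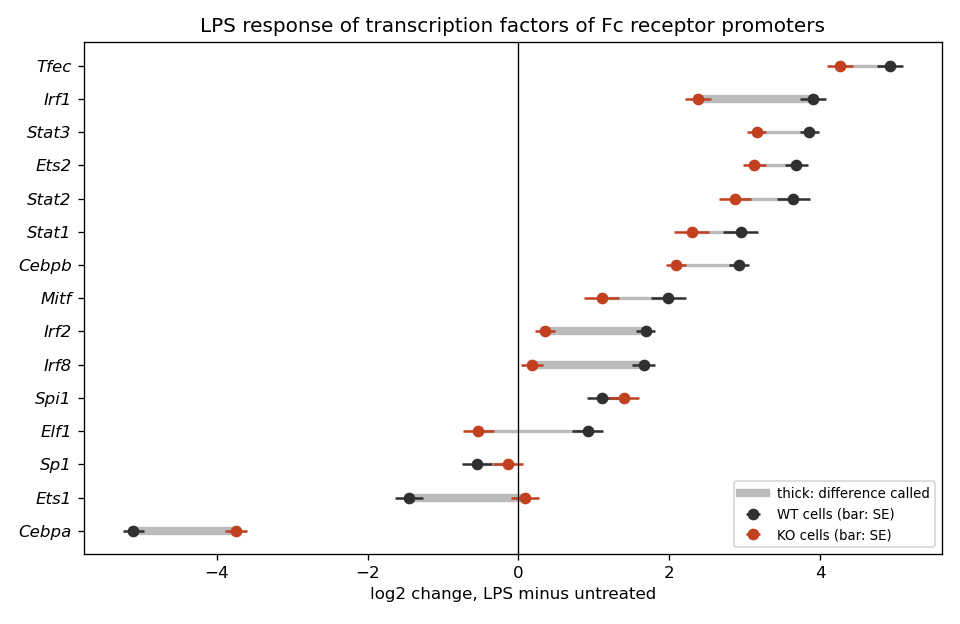
Change with LPS (log2 scale, LPS minus untreated, with bars of 1 standard error) of the 15 transcription factors in WT and KO cells. A thick grey line joins the points where the difference in response was called: Irf1, Irf2 and Irf8, with smaller rises in KO cells, and Ets1 and Cebpa.

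Of 13 genes of interferon and IL-10 signalling toward Fcgr1, the inhibitors Socs1 and Socs3 among them, 12 rose and 1 fell with LPS in WT cells. In KO cells 11 rose and 1 fell. Among all genes, 36.5% rose and 21.8% fell in WT cells, and 28.6% and 20.4% in KO cells. The median of the list was 1.67 in WT and 1.22 in KO cells, against 0.32 and 0.21 for all genes. In WT cells the calls of Ifnar1, Il10ra, Ifnar2 and Jak1 were lost in 4, 3, 2 and 1 of the 5 other scalings. That of Ifnar1 in KO cells was lost with quantile normalization (limma adjusted p = 0.0867). Ifnb1, which encodes interferon beta, was not well above background without LPS and was at least 176-fold higher with it in WT cells and at least 25.6-fold higher in KO cells (limma adjusted p = 3.41e-05 and 0.000212). Such a bound divides the mean of the bright group by that of the dim group, in which a signal under the array's lowest reading well above background is raised to that reading. It holds for the main scaling only. Over the 3 other scalings that tested Ifnb1, its change in WT cells ran from 4.46 to 7.49 on the log2 scale. Il10, which encodes a cytokine that raises Fc gamma receptor expression, rose by 6.70 ± 0.14 in WT and 4.13 ± 0.14 in KO cells. The feedback inhibitor Socs1 rose by 8.08 and 6.97.

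With LPS, 5 of these 13 genes were lower in KO cells and 1 higher, with a median of -0.44. Among all genes, 8.57% were lower and 7.88% higher. With quantile normalization 3 of the 13 were lower and 2 higher (median -0.09), likewise on the deposited values. With median centring 3 were lower and 1 higher. The calls of Irf9 and Socs1 were lost in 4 of the 5 other scalings. Ifnb1 differed by -2.57 ± 0.49 (limma adjusted p = 0.0191), a call lost without any 1 of the 4 arrays with LPS (adjusted p up to 0.0855). Il10 differed by -1.56 ± 0.14 (adjusted p = 0.00227) and Il10ra, a chain of its receptor, by -0.93 ± 0.11 (adjusted p = 0.00558), while Ifngr1, a chain of the interferon gamma receptor, was higher by 0.79 ± 0.16 (adjusted p = 0.0226). The calls of Il10 and Il10ra held without any 1 array, and that of Ifngr1 was lost without any 1 of the 4 KO arrays (adjusted p up to 0.109). In untreated cells Il10 was higher in KO cells by 1.01 ± 0.14 (adjusted p = 0.0212), a call lost without any 1 of the untreated arrays. The response of Il10 to LPS differed by -2.57 ± 0.20 (adjusted p = 0.00980), lost without either WT untreated array, KO untreated replicate 2 or KO replicate 2 with LPS (adjusted p up to 0.0625).

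Of 32 genes of ITAM signalling, 16 rose and 6 fell with LPS in WT cells, and 15 rose and 8 fell in KO cells. Beside them, 36.5% of all genes rose and 21.8% fell in WT cells, and 28.6% and 20.4% in KO cells. The list's medians were 0.41 and 0.36, against 0.32 and 0.21 for all genes. With quantile normalization 12 rose and 9 fell in WT cells. The Src family kinases that phosphorylate the ITAM were among the larger rises. Lyn rose by 3.60 ± 0.18 in WT and 2.51 ± 0.18 in KO cells, and Fgr by 2.32 and 2.33. Syk, the kinase that docks on the ITAM, rose by 1.40 ± 0.13 and 1.67 ± 0.13. Malt1, of the complex that links Syk to NF-kappaB, rose by 4.73 and 4.82, and the adaptor Lcp2 by 4.22 and 3.53.

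With LPS, 4 of the 32 were lower in KO cells and 1 higher, where 8.57% of all genes were lower and 7.88% higher. With median centring 2 were lower and 1 higher, and on the deposited values without scaling, which hold 25 of them, 2 were lower and 3 higher. The calls of Lat and Pik3cd were each lost in 2 other scalings. Tec, a kinase downstream of Syk, differed by -1.45 ± 0.13 (limma adjusted p = 0.00220), and the exchange factor Vav3 by -0.99 ± 0.14 (adjusted p = 0.00749), lost without KO replicate 2 with LPS (adjusted p = 0.0505). With LPS, Tec fell by 0.70 in WT and by 2.14 in KO cells, and this difference in response of -1.44 ± 0.18 was called (adjusted p = 0.0218). It was lost without any 1 of the untreated arrays or of the KO arrays with LPS (adjusted p up to 0.0947). In untreated cells Lcp2 was higher in KO cells by 0.86 (adjusted p = 0.0212), also lost without any 1 of those arrays.

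Of 21 measured genes of ITIM signalling and inhibitory receptors, 7 rose and 6 fell with LPS in WT cells, and 7 rose and 7 fell in KO cells. Of all genes, 36.5% rose and 21.8% fell in WT cells, and 28.6% and 20.4% in KO cells. The list's medians were 0.07 and 0.21, against 0.32 and 0.21 for all genes. With quantile normalization 6 rose and 9 fell in WT cells. Inpp5d, which encodes the phosphatase SHIP1 that Fcgr2b recruits, fell by 3.03 ± 0.13 in WT and by 1.93 ± 0.13 in KO cells, the opposite direction to Fcgr2b. With LPS, 2 of the 21 were higher in KO cells and 3 lower, where 7.88% of all genes were higher and 8.57% lower. Inpp5d was higher by 1.25 ± 0.13 (limma adjusted p = 0.00363), and this call held without any 1 array. The phosphatase genes Ptpn22 and Inppl1, the latter a relative of Inpp5d, differed the other way, by -1.48 ± 0.28 (adjusted p = 0.0186) and -1.07 ± 0.18 (adjusted p = 0.0131). Both calls held under the 5 other scalings and were lost without either KO array with LPS (adjusted p up to 0.0936). The LPS response of Inpp5d differed by 1.10 ± 0.19 (adjusted p = 0.0352), a call lost without any 1 array other than WT replicate 1 with LPS (adjusted p up to 0.145) and on the deposited values without scaling (adjusted p = 0.0586). The inhibitory receptor gene Cd300a rose by 4.15 in WT and 4.16 in KO cells, and Pilra by 3.79 and 2.74. Pilra was higher in untreated KO cells by 1.18 ± 0.12 (limma adjusted p = 0.00711) under every scaling, a call lost without WT untreated replicate 2 or either KO untreated array (adjusted p up to 0.0759). Its response differed by -1.05 ± 0.16 (adjusted p = 0.0304), lost in 3 of the 5 other scalings and without any 1 array other than WT replicate 1 with LPS.

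Of 33 genes of the phagocytic cup, the actin-rich fold that closes around a coated particle, 11 rose and 12 fell with LPS in WT cells, and 10 rose and 12 fell in KO cells. Of all genes, 36.5% rose and 21.8% fell in WT cells, and 28.6% and 20.4% in KO cells. The list's medians were -0.15 and 0.07, against 0.32 and 0.21. With quantile normalization 6 rose and 18 fell in WT cells. Myo1f, a class I myosin, fell by 3.04 in WT and 2.67 in KO cells, and the kinase Pak1 by 2.72 and 2.90. Limk1, a kinase of the actin regulator cofilin, fell by 2.43 and 1.86, while Myo10, a myosin of filopodia, rose by 1.53 and 1.68. With LPS, 6 were higher in KO cells and 2 lower, where 7.88% of all genes were higher and 8.57% lower. On the deposited values, which hold 31 of them, 9 were higher and 0 lower without scaling, and 8 and 1 at their 75th percentile. Limk1 was higher by 0.80 ± 0.12 (limma adjusted p = 0.00935). That call was lost without either KO array with LPS (adjusted p up to 0.0563).

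Of 15 genes of other Fc-binding receptors, their relatives and partner chains, 11 were measured above background in at least 1 group. Of these 11, 6 rose and 1 fell with LPS in either genotype. Beside them, 36.5% of all genes rose and 21.8% fell in WT cells, and 28.6% and 20.4% in KO cells. The list's medians were 0.57 in WT and 0.68 in KO cells, against 0.32 and 0.21 for all genes. With quantile normalization 4 rose and 4 fell in WT cells. Fcmr, the receptor for IgM, was at least 31.0-fold higher with LPS in WT cells and at least 39.7-fold in KO cells under the main scaling. Over the 3 other scalings that tested it, its log2 change ran from 2.30 to 5.12 in WT and from 2.67 to 6.09 in KO cells. Trim21, the cytosolic Fc receptor that senses antibody inside the cell, rose by 4.43 ± 0.28 in WT and 2.61 ± 0.28 in KO cells (limma adjusted p = 3.43e-05 and 0.000454). With LPS it was lower in KO cells, at -1.23 ± 0.28 (adjusted p = 0.0320), a call lost without any 1 array other than WT replicate 1 with LPS (adjusted p up to 0.140). Fcrlb, a relative of the Fc receptors that stays inside the cell, rose by 4.64 and 4.48, while Fcrl1, known from B cells, fell by 1.59 and 2.14.

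Over the 8 arrays, Fcgr1 correlated with Fcgr4 at r = 0.993, with Fcgr3 at 0.978, with Fcgr2b at 0.971 and with Fcer1g at 0.903, and inversely with Fcgrt at -0.869 and Fcrls at -0.764. The arrays fall into an untreated and an LPS cluster, which the coefficients mostly follow, and they are given as descriptions. Among 13483 named genes well above background on all 8 arrays, the one most like Fcgr1 was Lyn (r = 0.9998) and the one most like Fcgr4 was Ifi47, an interferon-induced GTPase (r = 0.9993), followed by Tgtp2 (r = 0.9992) and Il4ra (r = 0.9992). Most like Fcgr2b were Rcl1, Rnd1 and Septin11 (r = 0.9995, 0.9994 and 0.9992), and most like Fcgr3 were Appl1, Csnk1g3 and Ptgs2 (r = 0.998 each). Fcer1g was most like Arhgdia (r = 0.996), Fcgrt most like Adcy3 (r = 0.998) and Fcrls most like Rxra (r = 0.990).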

How the data were processed

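RNA of 8 BMM samples, 2 per group by their titles, was hybridised to 1-colour Agilent arrays (0.5 micrograms each). The authors read spot intensity with Agilent Feature Extraction (10.7.3.1 in the submitters' processing notes). The processed signal was background-subtracted and detrended array by array, and arrays were not scaled to each other, per the file headers. A deposited table of log2 values covered 26670 of 55681 probes. Its values matched the scanner's background-subtracted signal on the log2 scale, with a median difference of at most 0.00298 and a correlation of at least 0.996 per array. Array medians of that table were 10.94 and 11.10 (WT untreated), 10.67 and 10.73 (WT LPS), 11.11 and 11.03 (KO untreated), 10.85 and 10.71 (KO LPS). The match implies values neither scaled nor centred between arrays, and what decided which probes the table holds is not known.

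Here non-control spots without outlier flags were averaged per probe on the log2 scale and the array's 75th percentile was subtracted. The 39870 probes well above background on the 2 arrays of any group entered, each gene by its brightest probe (27964 genes). RefSeq's gene table named 26155 probes by accession, 3137 by symbol and 911 by synonym, while 25478 retained their deposited names. Group means were estimated over all 8 arrays in limma (3.58.1, R 4.3.3), with 4 residual and 2.29 prior degrees of freedom, and p-values were adjusted by Benjamini-Hochberg across genes and called under 0.05. In data simulated for KO minus WT without LPS (27491 genes), 100 genes were given a change of 1 on the log2 scale and 100 a change of 2. Of these, 22% and 67% were recovered, with 2 false calls. The real comparison called 962 genes, and an adjusted p depends on how many genes change, so these shares need not hold for it. Having 2 arrays a group limits what can be called, though the simulation did not vary that number.

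Results were recomputed with arrays centred on their medians or quantile normalized, after normexp correction, and from the deposited log2 values (as given or scaled). The dim-probe filter was dropped or required on all 8 arrays, and genes were also taken per probe or as the average of their probes. The model was refitted on only the arrays compared, with a block for replicate number or for slide column, with robust trended moderation, at a threshold of 0.01 and without each array. The members, lists and tests were chosen with earlier results of these data known. Named were the 7 members, Cul3, up to 4 called genes of each list and comparison by size, and the 3 genes most like each member; the text drops some for length. Syk, Fgr, Spi1, Irf2, B2m, Elf1, Irf9, Lat, Ifnar1, Ifnar2, Jak1 and the named cell type markers fall outside that rule. They were chosen after their values were seen. No protein or mm9 sequence was used here.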

Additional observations from a re-analysis of the deposited data

Results flagged for a closer look

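The response of Fcgr4 to LPS was flagged because it differed between the genotypes in a test of the difference itself, the interaction term of the limma model. The rise was 5.82 in WT and 4.25 in KO cells on the log2 scale, and the difference, KO minus WT, was -1.57 ± 0.19 (adjusted p = 0.0212). The difference kept its direction under all 21 alternatives, between -1.69 and -1.32, and was called under 11 of them. Groups of 2 arrays are too small for a check for outlying samples, and none was made.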

How the results depend on the processing

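Over 35 results (7 members in 5 comparisons) the alternatives gave 749 values, of which 685 kept direction and call, 33 lost the call, 12 gained one and 19 changed sign, none of these called in the main results. The changed signs were, for Fcgr2b without LPS, 0.03 on the deposited values without scaling. For KO minus WT with LPS they were 0.008 for Fcgr1 and 0.0378 for Fcer1g on those values, 0.10 for Fcer1g with quantile normalization, and -0.04 to -0.11 for Fcgr3 without WT replicate 2 or KO replicate 1 with LPS. For the difference in response of Fcer1g they were 0.25 (quantile), 0.08 (median centring), 0.094 (normexp), 0.28 (deposited, without scaling), 0.42 (deposited, 75th percentile) and, over the single arrays left out, -0.16 to 0.13. For Fcgrt they were 0.0264 and 0.16 on the deposited values, and over single arrays left out it ran from -0.30 to 0.0433, above 0 without WT replicate 2 with LPS; for Fcgr3 0.13 on the deposited values at their 75th percentile. The cause was not tested.

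All counts here are by limma, with counts at an unadjusted p under 0.05 in brackets where no member was called. Members called in KO minus WT without LPS (1 in the main results) numbered 2 with normexp, on the deposited values without scaling, with the filter on all 8 arrays and with trended and robust moderation. They numbered 0 with median centring [3], no filter [4], only the arrays compared [4], slide column as a block [3], a threshold of 0.01 [4], and 0 to 1 without single arrays [2 to 4]. With LPS they numbered 2 with quantile normalization, 2 and 4 on the deposited values, 0 with only the arrays compared [1], the column block [1] or 0.01 [1], and 0 to 1 without single arrays [1]. For the difference in response they numbered 2 with trended and robust moderation, 0 with no filter [3], the column block [2] or 0.01 [3], and 0 to 2 without single arrays [2 or 3]. Both LPS comparisons kept 7 without single arrays.

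Genes called without LPS (962) numbered 2311 with normexp, 388 with no filter, 565 with only the arrays compared, 139 with the column block, 1885 with trended and robust moderation, 200 at 0.01, and 118 to 1515 without single arrays. With LPS (4595) they numbered 2861 with no filter, 799 with only the arrays compared, 1160 with the column block, 1325 at 0.01 and 1496 to 4236 without single arrays. For LPS in WT cells (16295) they numbered 10833 and 10700 on the deposited values and 12749 to 15871 without single arrays, and in KO cells (13698) 10022 to 14811. For the difference in response (1253) they numbered 2441 with normexp, 547 on the deposited values, 196 with no filter, 2265 with trended and robust moderation, 32 at 0.01, and 0 to 2307 without single arrays, 0 without WT untreated replicate 1 or KO replicate 2 with LPS, where 5573 and 5036 had an unadjusted p under 0.05. They numbered 0 with the column block, where 4403 had an unadjusted p under 0.05.

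Replicate numbers were shared between groups, and deviations of same-numbered arrays correlated at -0.19 to 0.03. With 2 arrays a group this cannot show whether they are paired, and the labels do not say what the numbers mean. With the replicate block, 376, 2811, 15329, 12597 and 132 genes and 0, 1, 7, 7 and 0 members were called, in the order KO minus WT without and with LPS, LPS in WT and in KO, and difference in response; 3 members had an unadjusted p under 0.05 in the first and last. The adjusted p was 0.0778 for Fcrls without LPS and 0.0600 for the difference in response of Fcgr4.

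Leaving out an array left its group with 1, which is then assumed to vary like the others. Slide column as a block was not run for the LPS comparisons, whose groups lie in different columns, and the arrays of 2 groups alone give no difference in response.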
